A study of Homo sapiens with 6 samples.

Results

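The mRNA levels of 10 glycolytic enzymes were compared by RNA-seq in cells labelled OVCAR3, a human ovarian cancer line, with and without knockdown of NUF2, a subunit of the NDC80 kinetochore complex. The 10 members (HK2, GPI, PFKP, ALDOA, TPI1, GAPDH, PGK1, ENO1, PKM and LDHA) are the rows that carry these symbols among the 19973 genes of the deposited table, and each symbol matched 1 row. The control group held 3 libraries of cells that received shNC, a control hairpin, and the knockdown group held 3 libraries of cells that received shNUF2, a hairpin against NUF2. The cells of both groups carried a hairpin plasmid and were selected with puromycin to establish stable lines. Neither the labels nor the methods state whether the libraries of a group came from separate transfections or cultures, so the p-values measure only the spread between these libraries. The total counts ranged from 13057534 to 16995452 per library. NUF2 ranged from 903 to 1096 reads in the control libraries and from 281 to 384 after knockdown, a log2 fold change of -1.51 with a standard error (SE) of 0.08.

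Glycolysis breaks glucose down to pyruvate in the cytosol, and lactate dehydrogenase turns pyruvate into lactate while restoring the NAD+ that the GAPDH step consumes. Cancer cells often run this pathway at a high rate even in the presence of oxygen, and its genes are well-known targets of the hypoxia-inducible factors and of MYC. Several steps have isozymes encoded by different genes, with hexokinase, phosphofructokinase and pyruvate kinase catalysing the steps that are held to be irreversible. GAPDH is also the usual internal control of PCR and Western blots, and it was the reference for both the PCR and the Western blots of this study.

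As a check of the cell type, the keratin genes KRT7, KRT8 and KRT18 had 1581 to 12768 reads in every library and MUC16, which encodes CA125, had 371 to 873. Other markers of ovarian carcinoma were low in both groups. PAX8 had 143 to 252 reads, EPCAM 44 to 91, CDH1 9 to 33 and WT1 0 to 7, and whether the cells are the labelled line was not tested. Of 9 markers of other cell types, PTPRC, CD3E, CD68, VWF, COL1A2 and ALB had 0 to 11 reads, PECAM1 had 24 to 49, DCN 40 to 130 and COL1A1 835 to 1468. Several markers differed between the groups. KRT8, KRT18, PAX8, EPCAM and DCN were higher with shNUF2 (log2 fold changes 1.04, 0.55, 0.64, 0.69 and 1.22) and MUC16, COL1A1 and KRT7 were lower (-0.75, -0.39 and -0.22). The calls of EPCAM and KRT7 were lost in some alternatives (adjusted p up to 0.078 and 0.0742), and the KRT7 groups overlapped (585 to 742 CPM with shNC and 555 to 611 with shNUF2). The part of these markers in the differences of the members was not tested. Fewer cells of a kind and less RNA per cell cannot be told apart in bulk libraries such as these.

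The promoter windows of the members are shown because most members differed in the same direction between the groups. RefSeq lists 18 transcription start sites for the 10 members (GRCh38.p14). Of the forms of the core of the hypoxia response element, only ACGTG was searched for, on both strands, in the 250 bases before each start. The motif was found in 11 of the 18 windows (61.1%), which belong to 8 members, all but ENO1 and PKM. Among 15132 windows of the tested genes that matched RefSeq by symbol, 21.8% held it, as did 18.5% of all 35116 windows. CACGTG, the E-box bound by MYC and by the carbohydrate response factors, contains ACGTG on both strands and was found in 4 of the 18 windows (22.2%), in HK2, ALDOA, GAPDH and LDHA, compared with 8.11% of the windows of tested genes. A match is a run of letters and does not show that a factor binds there. The following stretches are given 5′ to 3′ on the strand of the gene, without bases of annotated exons, and capitals mark ACGTG or its complement. Where a member has several windows, the printed one was set by hand. For HK2, the member with the largest difference, the window before its downstream start is shown (chr2:74834920-74835169, plus strand). It holds 2 CACGTG, whereas the window before the upstream start of HK2 holds 2 ACGTG over both strands and 0 CACGTG. GAPDH and PGK1 represent the members with moderate differences (chr12:6535142-6535263 and chrX:78103998-78104173, both plus strand). LDHA and PFKP did not pass the test (chr11:18394313-18394387 and chr10:3067720-3067969, both plus strand). The full window of LDHA runs into exons and holds 5 ACGTG over both strands and 2 CACGTG, of which the printed stretch holds 1 CACGTG. The stretch of PFKP holds no match.
HK2: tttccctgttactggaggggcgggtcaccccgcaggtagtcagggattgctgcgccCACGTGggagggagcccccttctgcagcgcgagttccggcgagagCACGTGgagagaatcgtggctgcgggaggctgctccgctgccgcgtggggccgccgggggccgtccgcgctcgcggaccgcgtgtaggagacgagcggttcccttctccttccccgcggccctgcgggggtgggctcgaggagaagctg
GAPDH: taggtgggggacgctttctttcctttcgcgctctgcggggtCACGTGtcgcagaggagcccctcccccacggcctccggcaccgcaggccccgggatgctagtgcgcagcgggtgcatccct
PGK1: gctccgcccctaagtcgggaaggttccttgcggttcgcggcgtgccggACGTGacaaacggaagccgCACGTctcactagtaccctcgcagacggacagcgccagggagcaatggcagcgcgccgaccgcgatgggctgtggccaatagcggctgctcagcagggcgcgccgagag
LDHA: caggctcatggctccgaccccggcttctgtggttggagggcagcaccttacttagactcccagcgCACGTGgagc
PFKP: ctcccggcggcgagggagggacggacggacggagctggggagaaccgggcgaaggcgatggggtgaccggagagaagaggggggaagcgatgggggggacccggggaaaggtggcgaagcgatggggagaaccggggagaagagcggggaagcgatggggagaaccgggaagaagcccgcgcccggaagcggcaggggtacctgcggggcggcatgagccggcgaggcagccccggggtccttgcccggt
The motif was found before LDHA and in another window of PFKP, which were not called, and in no window of ENO1 or PKM, which were higher. The windows of ENO1 and PKM, however, lay wholly in annotated exons of the same gene, so that bases before their annotated gene starts were not searched. The GPI window, which held the motif, and 1 TPI1 window also lay wholly in exons. Whether the presence of the motif goes with the calls was not tested.

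In the whole pathway, 8 of the 10 members were higher with shNUF2 at an adjusted p under 0.05 (HK2, GPI, ALDOA, TPI1, GAPDH, PGK1, ENO1 and PKM), 0 were lower by edgeR or by any other tool tried, and PFKP and LDHA were not called. All 10 estimated log2 fold changes were above 0. The p-values of genes come from the quasi-likelihood test of edgeR and are adjusted by Benjamini-Hochberg over the 12874 genes tested. By the same rule 33.9% of all genes tested were higher and 33.8% were lower, so that a call in itself was common in this comparison. With the thresholds of the study (fold change beyond 1, read here on the log2 scale, and unadjusted p under 0.05), HK2 was the only member among the differentially expressed genes (DEGs), compared with 9.41% of genes tested that were DEGs with an increase and 4.16% with a decrease. For 8 of the 10 members the groups were fully separate, which was also the case for 70.6% of all genes tested. The median log2 fold change of the members was 0.40, and that of all genes tested was -0.01.

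**Figure D1:**
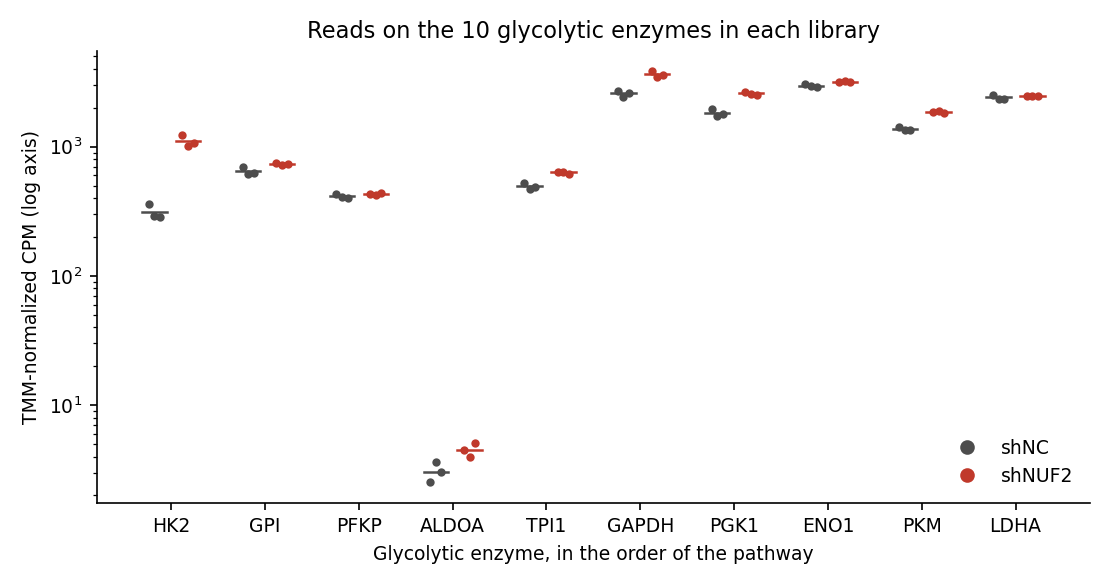
Normalized read counts (CPM after TMM scaling to library size, log axis) of the 10 enzymes in the order of the pathway, with 1 point per library and a line at the mean of each group of 3. HK2 shows the widest gap between shNC and shNUF2, PFKP and LDHA overlap, and ALDOA lies far below the others at 2.53 to 5.05 CPM.

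Hexokinase, which traps glucose in the cell as glucose 6-phosphate, showed the largest difference of the 10 members. The shNC replicates 1, 2 and 3 held 5163, 4663 and 4941 reads of HK2 (ENSG00000159399, chr2:74834127-74893359), and the shNUF2 replicates held 16696, 13121 and 16063. Each shNUF2 library thus held more HK2 reads than any shNC library, without overlap. In CPM, the count scaled to the library size after TMM, HK2 rose from 314 ± 42.6 to 1105 ± 119 (SD, n = 3 libraries per group), a 3.52-fold increase (log2 fold change 1.82, SE 0.07, adjusted p = 4.4e-18). This log2 fold change lay at percentile 96.5 of all genes tested.

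The other hexokinases rose as well. HK1, the housekeeping hexokinase, had 212 ± 10.5 CPM with shNC and 513 ± 20.4 with shNUF2 (SD, n = 3), and HKDC1, a hexokinase-like gene next to HK1 on chromosome 10, had 140 ± 4.79 and 284 ± 11.7. Their log2 fold changes were 1.27 (SE 0.05, adjusted p = 1.15e-18) and 1.02 (SE 0.05, adjusted p = 1.47e-16), and both were DEGs. HK3 had 0 to 6 reads per library, too few to be tested. On the FPKM scale, which corrects for gene length, the summed level of the hexokinase genes was 132, 118 and 115 in the shNC libraries and 356, 314 and 323 in the shNUF2 libraries, a ratio of 2.73. HK2 made up 44.1% ± 2.31 of this sum with shNC and 55.6% ± 1.66 with shNUF2 (SD, n = 3, exact two-sided permutation test, p = 0.10). The groups did not overlap, and 0.10 is the smallest p that 3 libraries against 3 allow.

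The next members, GPI and PFKP, differed much less. GPI (ENSG00000105220, chr19:34359480-34402413), which converts glucose 6-phosphate to fructose 6-phosphate, had 691, 620 and 629 CPM in the shNC libraries and 745, 723 and 731 CPM in the shNUF2 libraries. The groups were separate but close, and the increase was 1.13-fold (log2 fold change 0.18, SE 0.04, adjusted p = 0.00067).

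Phosphofructokinase commits the sugar to glycolysis, and its platelet-type subunit PFKP (ENSG00000067057, chr10:3066333-3137718) had 433, 406 and 400 CPM with shNC and 430, 425 and 440 CPM with shNUF2. These values overlapped. The log2 fold change was 0.06 (SE 0.04, 95% interval -0.02 to 0.15, adjusted p = 0.19). The liver-type subunit PFKL rose (log2 fold change 0.27, SE 0.05, adjusted p = 2.99e-05), whereas the muscle-type subunit PFKM fell from 201 ± 4.16 to 135 ± 5.14 CPM (SD, n = 3; log2 fold change -0.57, SE 0.05, adjusted p = 2.19e-11). PFKM accordingly made up 28.5% ± 1.27 of the summed phosphofructokinase FPKM with shNC and 19.9% ± 0.435 with shNUF2 (SD, n = 3, exact permutation p = 0.10). The summed phosphofructokinase FPKM itself was 95.8 to 101 with shNC and 91.8 to 94 with shNUF2, a ratio of 0.941.

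Aldolase splits fructose 1,6-bisphosphate into a pair of triose phosphates. ALDOA (ENSG00000149925, chr16:30064164-30070457), the aldolase of muscle and most dividing cells, was represented by only 36, 58 and 52 reads in the control group and by 61, 52 and 76 reads in the knockdown group. These raw counts overlapped, whereas the CPM did not (2.53 to 3.63 and 4 to 5.05). The log2 fold change was 0.56 (SE 0.23, adjusted p = 0.0304), and the call was lost when any of 4 libraries was left out (shNC replicate 1 or 3, shNUF2 replicate 1 or 3, adjusted p 0.0562 to 0.118). In GENCODE release 29, 42.3% of the exon bases of ALDOA are also exon bases of AC093512.2, a protein-coding gene on the same strand that starts upstream and ends within ALDOA. For AC093512.2, 53, 62 and 64 reads were counted with shNC and 45, 42 and 34 with shNUF2, and the gene was not called (log2 fold change -0.37, SE 0.24, adjusted p = 0.178). The same-strand share was 0% to 5.07% for the other 9 members, and its part in the low count of ALDOA was not tested.

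The summed aldolase FPKM was 17.6, 14.1 and 15.1 with shNC and 35, 31.2 and 28.6 with shNUF2, a ratio of 2.03 without overlap (exact permutation p = 0.10). ALDOC, the brain-type aldolase, rose from 38.2 ± 5.1 to 80.6 ± 9.13 CPM (SD, n = 3; log2 fold change 1.08, SE 0.08, adjusted p = 6.65e-12). By FPKM as deposited it was 93.2% to 96.6% of the summed aldolases in the 6 libraries. This share and the ratio of the sums both depend on the low ALDOA count, in which the part of the overlapping gene was not tested.

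The triose phosphates are interconverted by TPI1 and oxidized by GAPDH. TPI1 (ENSG00000111669, chr12:6867119-6870948) had 524, 474 and 488 CPM with shNC and 642, 638 and 618 CPM with shNUF2, a 1.28-fold increase without overlap (log2 fold change 0.35, SE 0.04, adjusted p = 5.69e-08). GAPDH (ENSG00000111640, chr12:6534512-6538374) was counted 38567, 38640 and 45033 times with shNC and 51645, 45146 and 54308 times with shNUF2. Even the lowest shNUF2 library held slightly more GAPDH reads than the highest shNC library, although it was the library with the smallest total. After scaling, GAPDH rose 1.41-fold from 2583 ± 151 to 3639 ± 181 CPM (SD, n = 3), at percentile 78.8 of all log2 fold changes.

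PGK1 makes the first ATP of the pathway. PGK1 (ENSG00000102144, chrX:77910739-78129295) had 1966, 1738 and 1795 CPM with shNC and 2665, 2562 and 2531 CPM with shNUF2, again a 1.41-fold increase without overlap (log2 fold change 0.50, SE 0.04, adjusted p = 1.16e-10). Its testis-specific copy PGK2 had 0 reads in all 6 libraries. PGAM1, the mutase of the next step, was not among the members and rose from 301 ± 13.4 to 362 ± 14.6 CPM (SD, n = 3; log2 fold change 0.27, SE 0.04, adjusted p = 8.86e-06).

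Enolase forms phosphoenolpyruvate, and here the isozymes moved apart. ENO1 (ENSG00000074800, chr1:8861000-8879190) had 3059, 2944 and 2890 CPM with shNC and 3152, 3236 and 3140 CPM with shNUF2. The groups did not overlap, but the gap was small and the increase was 1.07-fold (log2 fold change 0.10, SE 0.04, adjusted p = 0.0226). The call for ENO1 was lost with library totals in place of TMM (adjusted p = 0.132) and without shNC replicate 2 (0.0698), shNC replicate 3 (0.132) or shNUF2 replicate 2 (0.0805), and its adjusted p reached 0.228 over all alternatives.

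ENO2, the neuronal enolase, rose 3.13-fold from 144 ± 21.5 to 449 ± 41.6 CPM (SD, n = 3; log2 fold change 1.65, SE 0.07, adjusted p = 4.63e-17), whereas ENO3, the muscle enolase, fell from 169 ± 3.16 to 93.2 ± 3.72 CPM (log2 fold change -0.86, SE 0.05, adjusted p = 1.16e-14). By FPKM, ENO2 made up 5.22% ± 0.61 of the summed enolases with shNC and 14.3% ± 1.25 with shNUF2, and ENO1 88.6% ± 0.548 and 82.8% ± 1.32 (SD, n = 3, exact permutation p = 0.10 for each). ENO1 thus remained the main enolase in every library.

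**Figure D2:**
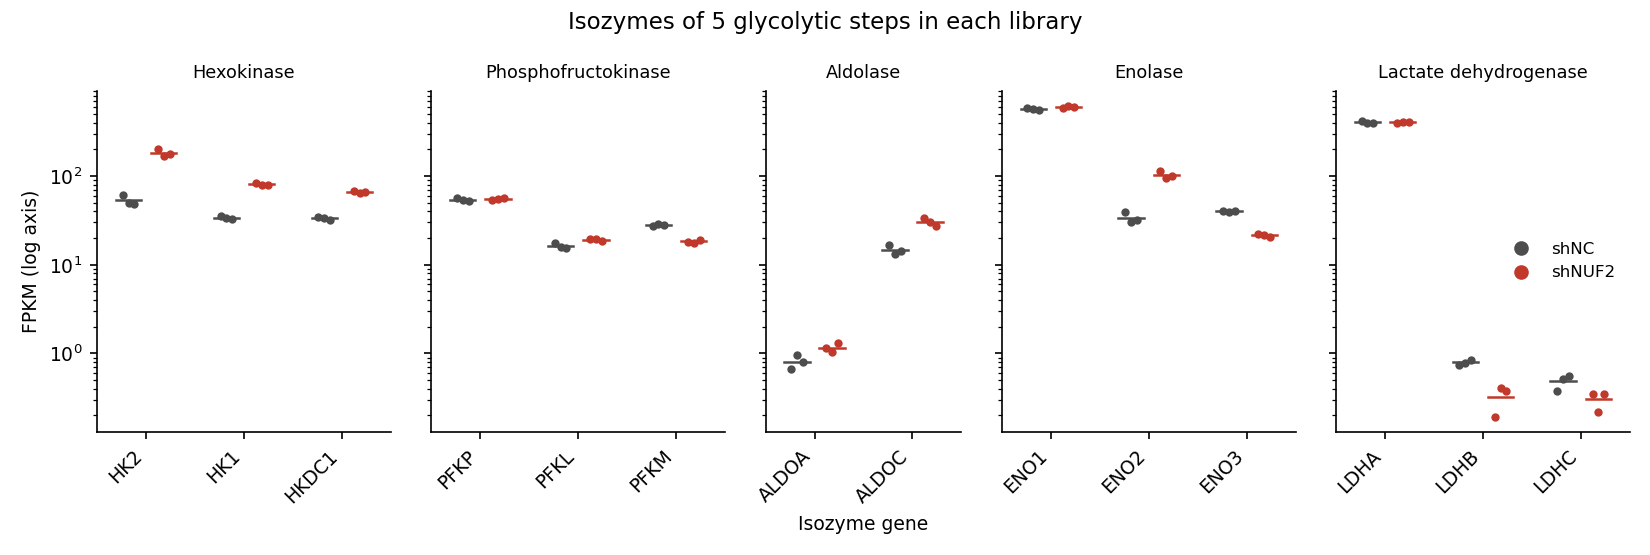
FPKM (log axis) of the isozyme genes of 5 glycolytic steps, with 1 point per library and a line at the mean of each group of 3. The 3 hexokinases and ENO2 were higher with shNUF2, PFKM and ENO3 were lower, and LDHA lay at about the same level in both groups.

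Pyruvate kinase and lactate dehydrogenase close the pathway. PKM (ENSG00000067225, chr15:72199029-72231822) had 1411, 1340 and 1346 CPM with shNC and 1852, 1880 and 1831 CPM with shNUF2. This was a 1.36-fold increase without overlap (log2 fold change 0.44, SE 0.04, adjusted p = 1.23e-10). The table holds 1 count per gene, so that the PKM1 and PKM2 forms, which arise by alternative splicing, could not be separated, and PKLR, the pyruvate kinase of liver and red cells, had 0 or 1 read per library.

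LDHA (ENSG00000134333, chr11:18394560-18408425) had 2527, 2348 and 2341 CPM with shNC and 2480, 2461 and 2465 CPM with shNUF2. The shNUF2 values lay within the range of the shNC values. The log2 fold change was 0.04 (SE 0.04, 95% interval -0.04 to 0.11, adjusted p = 0.407). The mean FPKM of LDHA was 403 in both groups. LDHB, the subunit that favours the return of lactate to pyruvate, was near the lower limit of the data, with 31, 37 and 43 reads in the control group and 8, 16 and 17 in the knockdown group (log2 fold change -1.24, SE 0.34, adjusted p = 0.00227). LDHC, the testis form, was not called (log2 fold change -0.63, SE 0.43). LDHA made up at least 99.6% of the summed LDHA, LDHB and LDHC FPKM in every library.

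**Figure D3:**
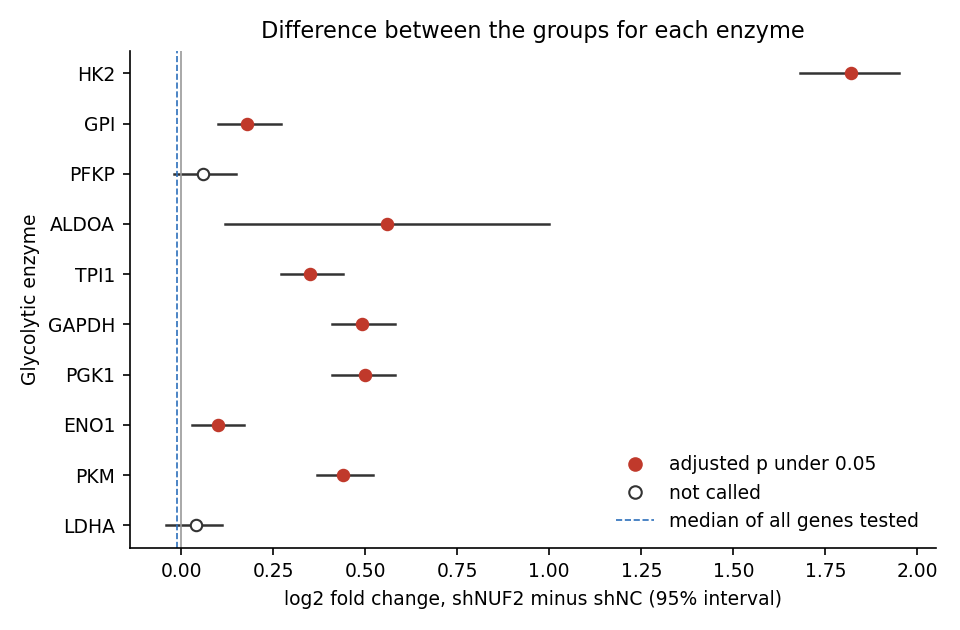
Log2 fold change of each member (shNUF2 minus shNC) with its 95% interval from 3 libraries per group, where filled points passed an adjusted p under 0.05 and the dashed line marks the median of all genes tested (-0.01). HK2 stands apart at 1.82, ALDOA has the widest interval (0.12 to 1.00), and the intervals of PFKP and LDHA include 0.

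On the FPKM scale, GAPDH was the most abundant member in both groups, with 1091 ± 58.1 with shNC and 1498 ± 60.2 with shNUF2 (SD, n = 3), followed by ENO1 with 575 ± 14.9 and 601 ± 14.6. In the shNC libraries the order continued with LDHA, PGK1, TPI1, PKM, GPI, PFKP, HK2 and ALDOA, and the libraries of neighbouring members overlapped only for PFKP and HK2. With shNUF2, PGK1 at 469 ± 9.61 FPKM stood above LDHA at 403 ± 2.25, and HK2 moved from position 9 to position 7 with 184 ± 18.1 FPKM. No neighbours overlapped in that order. The summed FPKM of the members was 3062, 2824 and 2897 in the shNC libraries and 3804, 3681 and 3686 in the shNUF2 libraries, a ratio of 1.27 (exact two-sided permutation test, p = 0.10). The members took 1.32% ± 0.0529 of all counts with shNC and 1.64% ± 0.0215 with shNUF2 (SD, n = 3). Without GAPDH the summed FPKM still had a ratio of 1.21, and the share of GAPDH in the sum was 36.4% to 38.2% with shNC and 39.2% to 41.1% with shNUF2.

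Because GAPDH served as the reference of the PCR, the FPKM of each member was divided by that of GAPDH within each library, a ratio that does not depend on the scaling of libraries. The log2 ratio of HK2 to GAPDH was -4.21, -4.36 and -4.49 with shNC and -2.93, -3.09 and -3.06 with shNUF2, a 2.5-fold relative increase. Members that changed little were lower relative to GAPDH. The log2 ratio of LDHA to GAPDH was -1.44, -1.38 and -1.49 with shNC and -1.96, -1.83 and -1.88 with shNUF2, a relative level of 0.729. For PFKP the relative level was 0.741, for ENO1 0.76, for GPI 0.805 and for TPI1 0.907. The groups did not overlap for these 5 genes or for HK2 (exact two-sided permutation test, p = 0.10 for each of the 6, the smallest possible, with 9 members compared). On CPM the groups were separate for 70.6% of all genes tested, and this share was not computed for ratios to GAPDH. PGK1 and PKM kept about the level of GAPDH, with differences in log2 ratio of 0.0031 and -0.0533 and overlapping groups (exact p = 1.00 and 0.40), and that of ALDOA was 0.0783 (exact p = 0.90).

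The same ratio was taken for other genes used as references. Of the 16 reference genes, PGK1 among them, 8 were higher and 5 were lower with shNUF2, and PPIA, B2M and TFRC were not called. The call of TBP as lower was lost in some alternatives (adjusted p up to 0.0935), and TFRC was called lower with library totals in place of TMM (adjusted p = 0.0136). Relative to GAPDH, ACTB had a level of 0.91, HPRT1 of 1.05 and TUBB of 0.941, each with overlapping groups, whereas RPLP0 had 0.484, RPL13A 0.555, GUSB 0.482, TBP 0.599, TFRC 0.67, PPIA 0.697, B2M 0.704 and YWHAZ 0.778, without overlap. SDHA had 1.36 and TUBA1A 3.69, also without overlap, although TUBA1A and SDHA were low genes with 4.39 and 9.83 CPM with shNC. ERBB3 is a receptor tyrosine kinase whose mRNA the PCR compared with GAPDH. In the libraries its level relative to GAPDH was 0.221 with shNUF2. On the CPM scale its log2 fold change was -1.68 (SE 0.06, adjusted p = 4.76e-19), and the difference of its log2 ratio to GAPDH was -2.18. The sense primer of the GAPDH PCR (ggtgaaggtcggagtcaacg, 20 bases, from the primer list of the study) occurs exactly in transcripts of GAPDH and of 1 of the 62 GAPDH pseudogenes in GENCODE release 29, GAPDHP65, and 8 of the 62 match it with at most 2 mismatches. The deposited table lists 0 of these pseudogenes, and the antisense primer was not searched.

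**Figure D4:**
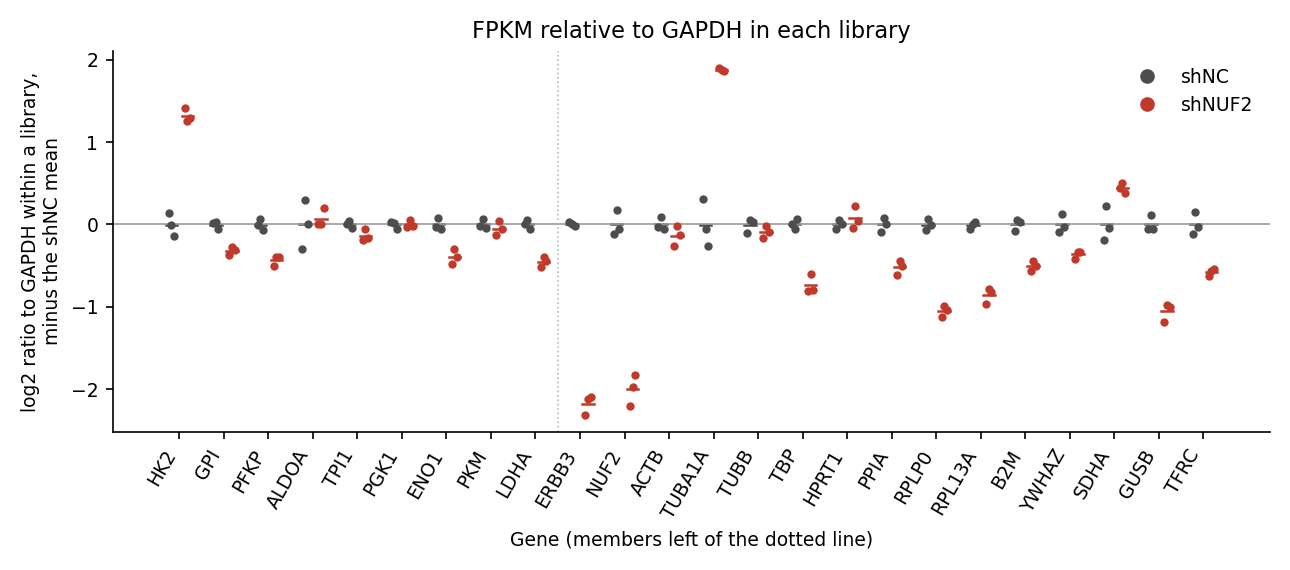
Log2 of the FPKM ratio to GAPDH within each library, minus the mean of the shNC libraries, for the other 9 members (left of the dotted line) and for ERBB3, NUF2 and the reference genes named in the text, with 1 point per library. HK2 lies above 0 and LDHA, PFKP, ENO1 and GPI below 0 with shNUF2, whereas PGK1, PKM and ACTB stay near 0.

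The genes outside the pathway lists whose profile over the 6 libraries was most like that of GAPDH, by the smallest root mean square difference of log2 CPM after centring on the shNC mean, were CSNK1E (0.019), RRAGA (0.019), RHOB (0.024), SPTBN1 (0.025) and ARRDC3 (0.027). These were taken from 2393 genes with a mean of at least 100 CPM. Because the profile covers both groups, this choice fixes log2 fold changes near that of GAPDH, and they lay between 0.48 and 0.51.

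Of the other glycolysis genes, 13 of 22 had enough counts to be tested, and 7 of these were higher and 4 were lower, with a median log2 fold change of 0.27. The isozymes named above and PGAM1, BPGM and ADPGK account for these calls. Upstream of the members, SLC2A1 (GLUT1), the basal glucose carrier, rose from 365 ± 25.8 to 718 ± 40.6 CPM (SD, n = 3; log2 fold change 0.98, SE 0.05, adjusted p = 1.6e-15). SLC2A3 (GLUT3), a high-affinity glucose carrier, rose from 108 ± 18.3 to 291 ± 25.3 CPM (log2 fold change 1.43, SE 0.07, adjusted p = 3.03e-15). Among the 14 carriers tested, 4 were higher, all of them of the SLC2A family, and 7 were lower, with a median of -0.16. The monocarboxylate carriers SLC16A1 (MCT1) and SLC16A3 (MCT4), which move lactate across the membrane, fell, with log2 fold changes of -0.39 and -0.34 (SE 0.04 and 0.05, adjusted p = 1.01e-08 and 8.35e-07). SLC16A7 (MCT2) fell as well (-0.64, adjusted p = 6.18e-09). SLC16A8 (MCT3) had overlapping groups and a log2 fold change of -0.76 (adjusted p = 0.0393, up to 0.248 over the alternatives). The lower carriers also included SLC2A5 (GLUT5), a fructose carrier, and SLC2A8, another member of the SLC2A family (-0.29 and -0.36, adjusted p = 0.0131 and 0.0115, up to 0.0752 and 0.0722 over the alternatives). The count of lower carriers was 4 without shNUF2 replicate 2.

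Of 13 regulators of glycolysis tested, 7 were higher and 2 were lower, with a median of 0.16. PFKFB3, which makes fructose 2,6-bisphosphate, the activator of phosphofructokinase, had 32.7, 34.2 and 32.6 CPM with shNC and 192, 164 and 162 CPM with shNUF2. This was a 5.21-fold increase (log2 fold change 2.38, SE 0.06, adjusted p = 2.33e-21), whereas PFKP itself did not pass the test. GCKR, a regulatory protein of the liver, had 0 to 5 reads with shNC and 10 to 29 with shNUF2, and MLXIPL and PFKFB1, with means of 12.2 and 1.12 CPM with shNC, were lower (log2 fold changes -1.66 and -1.70). HIF1A was higher (log2 fold change 0.37, SE 0.04, adjusted p = 2.69e-08), and MYC was not called (-0.08, SE 0.05, adjusted p = 0.102), although its adjusted p was 0.0232 with library totals in place of TMM. GCKR and PFKFB1 each passed the filter only through the group where they were higher. With at least 1 CPM in every library, which neither of them met, 6 regulators were higher and 1 was lower. The count of lower regulators ranged from 1 to 3 over the alternatives.

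In a route that branches from glycolysis and in one that runs against it, all calls among the genes tested were decreases. In the pentose phosphate pathway, which draws on glucose 6-phosphate, 0 of 8 tested genes were higher by edgeR and 7 were lower, all 8 estimates were below 0, and the median log2 fold change was -0.78. H6PD, which acts in the endoplasmic reticulum, fell from 106 ± 1.95 to 35.4 ± 0.85 CPM (SD, n = 3; log2 fold change -1.59, SE 0.06, adjusted p = 1.31e-18). RPE and TALDO1, of the non-oxidative branch, fell by 0.85 and 0.81 on the log2 scale. TKTL1, which had too few reads to be tested, had 0 reads in the shNC libraries and 13, 10 and 3 in the shNUF2 libraries. It passed the filter and was called higher with no filter on low counts and when shNC replicate 1, 2 or 3 or shNUF2 replicate 3 was left out, each of which gave 1 higher gene. In gluconeogenesis, all 4 tested genes were lower, with a median of -1.31. PC, which carboxylates pyruvate, fell from 304 ± 7.67 to 94.8 ± 3.1 CPM (log2 fold change -1.68, SE 0.05, adjusted p = 4.15e-21), and PCK2, the mitochondrial phosphoenolpyruvate carboxykinase, from 84.3 ± 0.739 to 17.1 ± 0.759 CPM (-2.30, SE 0.07, adjusted p = 3.12e-20). PCK1, its cytosolic counterpart, and G6PC3, a glucose 6-phosphatase, had log2 fold changes of -0.94 and -0.37.

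Pyruvate dehydrogenase, which turns pyruvate into acetyl-CoA in mitochondria, and its regulators had calls in both directions. Of the 12 genes of this list, 5 were higher and 6 were lower, with a median of -0.15. The E1 subunit gene PDHA1 and the E3 gene DLD fell (log2 fold changes -0.34 and -0.69, SE 0.04 and 0.05, adjusted p = 5.88e-08 and 1.93e-12). PDHB and DLAT, also of the complex, fell (-0.40 and -0.29), whereas PDHX rose (0.39, SE 0.06, adjusted p = 1.24e-06). The kinases PDK1, PDK3 and PDK4, which inhibit the complex, rose (0.37, 0.49 and 0.59), PDK2 fell (-0.48), and the phosphatase PDP1 rose from 13.8 to 47.9 CPM (1.80, SE 0.10, adjusted p = 7.55e-15). Of 12 genes of the glycerol phosphate shuttle and glycogen metabolism, 5 were higher and 3 were lower, with a median of 0.07. Among them GYS1, the muscle glycogen synthase, GBE1, the branching enzyme, and PYGL, the liver glycogen phosphorylase, rose (0.66, 0.87 and 0.97), as did PGM2L1 (0.90), and GPD1L fell (-1.22). Over all 7 lists outside the members, 28 of 76 tested genes were higher and 33 were lower, with a median of -0.09.

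**Figure D5:**
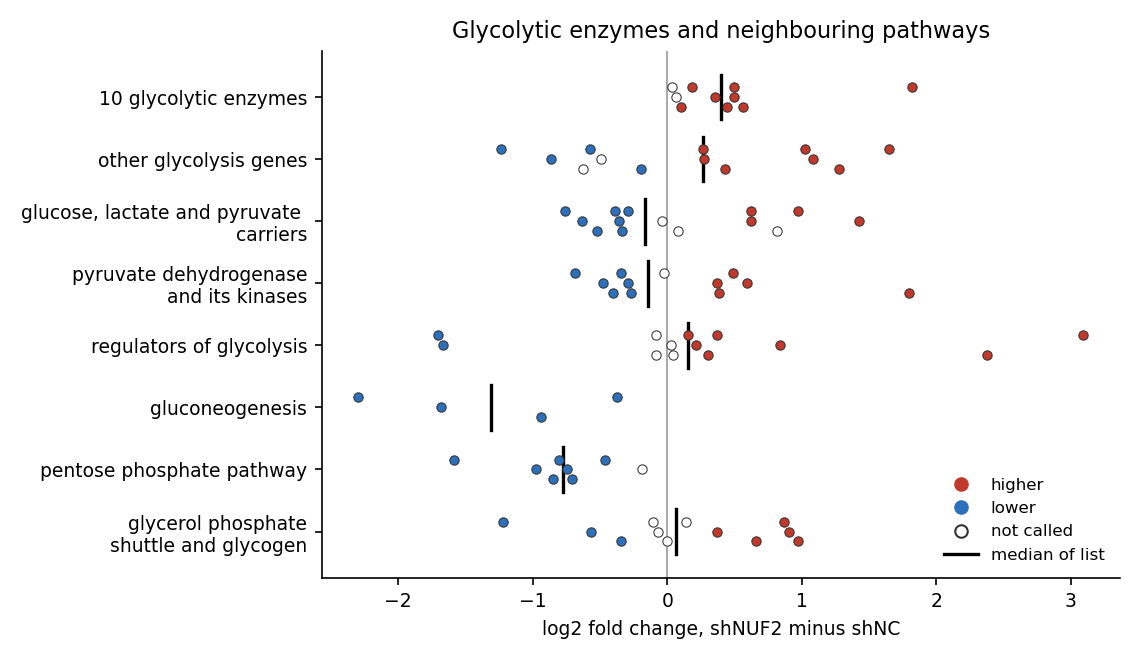
Log2 fold change (shNUF2 minus shNC) of each tested gene of the 10 enzymes and of 7 neighbouring pathway lists, coloured by the call at an adjusted p under 0.05, with a bar at the median of each list. The 10 enzymes hold no gene called lower, whereas gluconeogenesis and the pentose phosphate pathway hold no gene called higher.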

How the data were processed

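RNA of OVCAR3 cells was sequenced from strand-specific mRNA libraries. The submitters' processing notes name cutadapt, HISAT, HTSeq and GRCh38.p13, without roles, and the strand setting of the counting is not given in the sources used here. The authors deposited 1 read count per gene and library without normalization, and FPKM values, which recomputation from count, gene length and library total returned. Groups were taken from the sample labels. Counts were filtered by filterByExpr, scaled by TMM and compared with edgeR 4.0.16 in R 4.3.3 (glmQLFit and glmQLFTest, 3 against 3 libraries, no covariate). SE was obtained by dividing the log2 fold change by the root of the F statistic, and intervals are 1.96 SE to either side. CPM was used between groups and FPKM between genes.

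The 10 members and all gene lists were chosen with earlier results of these data known. Genes were named by a rule: all members, NUF2, ERBB3, the reference genes, isozymes of members with any count, up to 4 genes per list with the largest log2 fold change among those called, and the 5 genes most like GAPDH. Some genes that this rule would name are not reported here. PGAM1, BPGM, ADPGK, SLC16A1, SLC16A3, SLC2A5, SLC2A8, HIF1A, MYC, PDHA1, PDHB, DLAT, PDHX, PDK1, PDK2, GYS1, AC093512.2, TKTL1 and PGK2 were named after their values were seen. Same-numbered libraries did not deviate together (correlations 0.02, 0 and -0.03), so the main fit has no replicate block. On simulated counts for this comparison (12773 genes), edgeR recovered 189 of 200 changed genes and called 11 unchanged ones. The planted changes were no smaller than 1 on the log2 scale, with the same dispersion for all genes. All members but HK2 had smaller estimates, and neither changes of that size nor a comparison in which most genes change was simulated. Other scalings, filters, DESeq2 1.42.0, limma 3.58.1 on log2 FPKM, the block and leaving out each library were tried. Sequences are from RefSeq. Ratios and shares were compared by exact permutation (scipy 1.17.1).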

Additional observations from a re-analysis of the deposited data

How the results depend on the processing

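The number of members called higher was 8 with DESeq2 size factors, with upper quartile scaling, with the DESeq2 test, with at least 1 CPM in every library and with the replicate number as a block, in which fit 0 members were lower and 1 was a DEG. It was 7 with library totals only, with no filter and with limma on log2 FPKM, each without ENO1, and 6 to 7 with each library left out in turn, without ENO1 (adjusted p up to 0.132) or ALDOA (adjusted p up to 0.118) or both. No member was called lower in any of these fits, and the log2 fold change of each member kept its sign, with HK2 between 1.73 and 1.93, GAPDH between 0.45 and 0.53 and LDHA between 0.00 and 0.07. The replicate block changed no call of a member. Over all genes tested, 756 DEGs were higher with at least 1 CPM in every library, and limma on log2(FPKM + 1) gave 430 higher and 206 lower DEGs in place of 1212 and 536. Differences in log2 ratio to GAPDH changed sign with 1 library left out for ALDOA (-0.0871 to 0.256) and PGK1 (-0.0232 to 0.0189). The medians of all genes stayed between -0.05 and 0.07 under every setting. With no filter, and without any 1 shNC replicate or shNUF2 replicate 3, 1 pentose phosphate gene, TKTL1, was called higher. MYC was called lower with library totals, with no filter and without shNC replicate 1 or shNUF2 replicate 2, and the lower regulators numbered 1 with at least 1 CPM in every library. Counting limits the values of ALDOA (36 to 76 reads), LDHB and GCKR.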
